A study of Mus musculus with 17 samples.

Results

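The end-joining and class-switch repair machinery was followed in GC B cells through 9 genes: *Trp53bp1*, *Rif1*, *Xrcc5*, *Xrcc6*, *Prkdc*, *Xrcc4*, *Lig4*, *Nhej1* and *Parp1*. They are 9 of the 21848 genes in the count tables, chosen by symbol, and all 9 passed the low-count filter in both experiments (10220 and 10125 genes tested). In the time course, CD45.1 hosts were primed with OVA in alum, received NP-specific B1-8hi B cells, of which a small part expressed the receptor DEC-205 and the rest lacked it (Ly75-/-), and were boosted with NP-OVA. GC B cells were taken at 7 dpi (Day7, 0 h, 9 mice), at 9 dpi without (Day9, 48 h, 6 mice) or with anti-DEC-OVA (Day9DEC, 9 mice), and at 10 dpi without (Day10, 72 h, 8 mice) or with it (Day10DEC, 7 mice). The labels call them only live GC cells, whereas the study describes the time-course cells in which mutations were counted as DEC-205+. Anti-DEC-OVA, given at 7 dpi, delivers OVA to DEC-205-expressing GC B cells and drives their expansion in the dark zone. In the second experiment, GC B cells carrying the DHB-tdTomato reporter, alone or with H2B-GFP, were sorted by image 72 h after anti-DEC-OVA. They went into pool C, read here as cytoplasmic reporter (CDK2hi), and pool N, read as nuclear reporter (CDK2low), from the same 7 mice.

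Several features limit these groups as models. All hosts were wild type, and the B1-8hi receptor is a single engineered specificity. In 32.2% to 77.7% of the kept cells of a mouse, the B1-8hi pairing was detected as the only productive heavy and light chain. Cells with no recovered chain or with an extra chain count as lacking it, so this is a share detected. At 48 h this share was higher in treated than in untreated mice. It was 70.5% to 77.7% against 62.3% to 67.2% in the larger time-course pool. In the smaller one it was 53.1% to 58.0% against 34.7% to 38.8%. Fits on cells with this pairing only are among the other ways of processing given below, and they hold fewer cells. Why the share differed was not tested. The time-course donor cells with DEC-205 also carried a tetracycline-regulated H2B-mCherry allele. Pool C and pool N are 1 library each, so that population and library cannot be told apart.

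Classical non-homologous end joining begins when the Ku heterodimer, made of Ku80 (*Xrcc5*) and Ku70 (*Xrcc6*), encircles a broken DNA end and recruits the kinase DNA-PKcs (*Prkdc*). XRCC4, DNA ligase IV (*Lig4*) and XLF (*Nhej1*) then join the ends. In B cells this pathway completes class-switch recombination, in which 53BP1 (*Trp53bp1*) and its effector RIF1 shield the broken switch regions from resection, whereas PARP1 binds single- and double-strand breaks and is linked to the alternative, microhomology-using route.

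The genes lie on 6 chromosomes of GRCm39, the assembly that the submitters call mm39. *Trp53bp1* is at chr2:121023762-121120840 on the minus strand and *Rif1* at chr2:51961491-52017020 on the plus strand. *Xrcc5* is at chr1:72346532-72434112 (plus), *Nhej1* at chr1:75004985-75101899 (minus) and *Parp1* at chr1:180396443-180431307 (plus). *Xrcc6* is at chr15:81871931-81924291 (plus), *Prkdc* at chr16:15455698-15660099 (plus), *Xrcc4* at chr13:89922129-90237754 (minus) and *Lig4* at chr8:10019049-10027686 (minus). In the GENCODE vM39 annotation, *Xrcc6* overlaps *Desi1* on the opposite strand over 41348 bases with start sites 146 bases apart, *Lig4* overlaps *Abhd13* over 438 bases, *Trp53bp1* overlaps *Tubgcp4* over 7170 bases and *Map1a* over 770 bases, both on the opposite strand, and *Xrcc4* overlaps *Tmem167* over 513 bases. Whether the counting used strand is not given in the sources used here, and without strand reads of such pairs cannot be told apart. *Prkdc* shares its start region with *Mcm4*, a subunit of the replicative helicase, whose start site lies 489 bases away on the opposite strand.

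The promoters of both Ku genes, which rose at 48 h, and of *Prkdc*, which did not pass the test there, are shown from 250 bases before to 50 bases after the start site of the canonical transcript, 5′ to 3′ on the gene's strand, which is plus for all 3. Capitals mark the CCAAT box, read as CCAAT or ATTGG, and the NRF1 palindrome.
Xrcc5 (chr1:72346329-72346628): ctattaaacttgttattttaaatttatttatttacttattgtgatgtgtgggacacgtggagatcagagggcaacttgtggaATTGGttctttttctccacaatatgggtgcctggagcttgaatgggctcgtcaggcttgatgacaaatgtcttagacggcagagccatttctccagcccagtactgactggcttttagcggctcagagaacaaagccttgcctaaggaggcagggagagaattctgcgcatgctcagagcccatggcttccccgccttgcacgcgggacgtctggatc
Xrcc6 (chr15:81900320-81900619): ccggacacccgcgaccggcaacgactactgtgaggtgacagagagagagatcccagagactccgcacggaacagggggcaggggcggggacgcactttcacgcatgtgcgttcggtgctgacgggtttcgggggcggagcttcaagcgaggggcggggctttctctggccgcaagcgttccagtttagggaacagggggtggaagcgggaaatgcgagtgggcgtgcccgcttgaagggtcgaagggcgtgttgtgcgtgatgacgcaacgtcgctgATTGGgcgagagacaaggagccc
Prkdc (chr16:15455503-15455802): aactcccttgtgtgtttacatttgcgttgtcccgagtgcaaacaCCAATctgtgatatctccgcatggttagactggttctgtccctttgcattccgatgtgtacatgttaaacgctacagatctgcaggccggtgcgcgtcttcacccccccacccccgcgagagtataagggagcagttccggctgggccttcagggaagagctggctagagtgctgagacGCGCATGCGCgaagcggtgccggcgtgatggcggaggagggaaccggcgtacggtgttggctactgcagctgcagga
All 3 sequences held a CCAAT box, as did 40% of the 21603 promoters of the same length and none of the other 5 promoters examined. Counted from the start, it began at base -168 in *Xrcc5* and -206 in *Prkdc*, but at base 28, past the start, in *Xrcc6*. The NRF1 palindrome occurred in *Prkdc*, 27 bases before the start, and in 1.16% of all promoters. The E2F letters TTTCGCGC or TTTGGCGC were in none of these 8 windows (1.01% of all promoters), and neither was the cell-cycle element TTTGAA (17%). The ETS letters CCGGAAGT and the YY1 motif were in none of the 8 either (4.37% and 0.56%). All motifs were read on both strands, and these matches describe letters only.

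**Figure D1:**
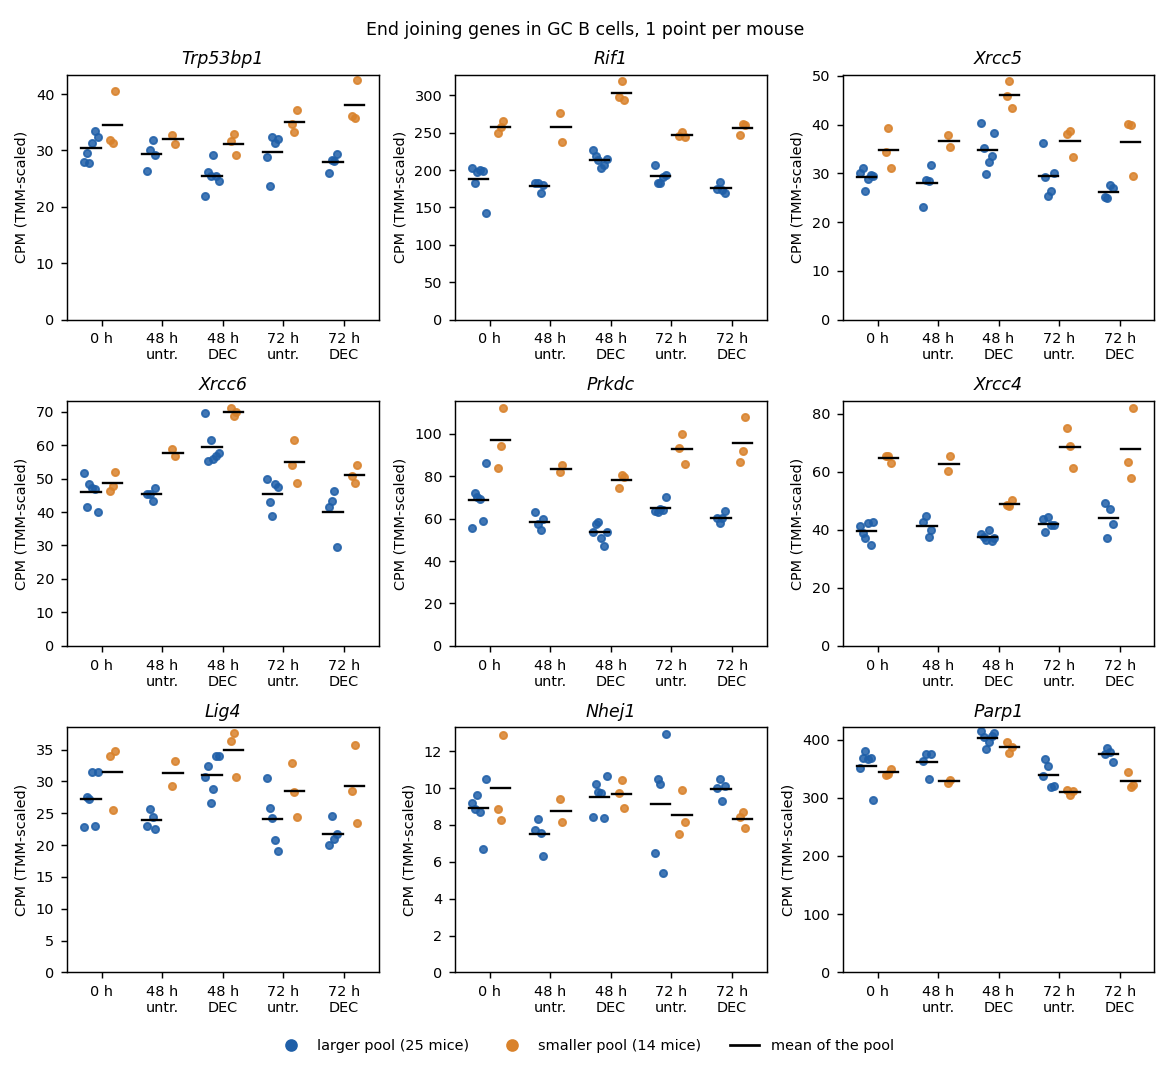
CPM (TMM-scaled, y axis from 0) of each gene in the 5 groups of the time course (x axis; untr., untreated; DEC, anti-DEC-OVA), with 1 point per mouse, coloured by pool, and a line at the mean of each pool. All genes but *Parp1* and *Nhej1* had higher means in the smaller pool in every group (*Parp1* had lower ones), and *Parp1* at 48 h after anti-DEC-OVA, between 377 and 415 CPM, lay above all untreated 48 h mice, between 326 and 375 CPM.

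Levels are given as CPM, that is UMIs of a gene scaled to a common library total per mouse with TMM, as mean ± SD over mice or as lowest to highest. Between 1984426 and 20883036 UMIs were summed per mouse, and the genes had from 17 UMIs in a mouse (*Nhej1*) to 7112 (*Parp1*). The 25 mice of the larger pool and the 14 of the smaller pool were 2 separate experiments and all 5 groups occurred in both, so the fits carry a term for the pool. In summed counts, fewer cells of a kind and less RNA per cell cannot be told apart. *Bcl6*, which marks GC B cells, was at 218 CPM or more in every time-course mouse, whereas the macrophage gene *Csf1r* stayed under 0.6 CPM in every mouse. The myeloid gene *Lyz2* ranged from 0 to 18.7 CPM over the time-course mice.

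At 48 h, anti-DEC-OVA raised both Ku subunits, *Rif1*, *Lig4*, *Nhej1* and *Parp1* by 1.14 to 1.27-fold over untreated GC B cells, and lowered *Xrcc4*, the call of *Nhej1* being near the threshold (adjusted p = 0.0492). This made 6 of 9 genes higher and 1 lower, in a comparison in which 47.3% of all genes tested were called, 26.3% as higher and 21.1% as lower (edgeR's quasi-likelihood test with a term for the pool, Benjamini-Hochberg adjusted p below 0.05). The median log2 fold change was 0.25 over the 9 genes and 0.01 over all genes. Of all called genes 55.4% were higher, or 38.1% when library totals replaced TMM, and no called member changed direction with that choice. *Trp53bp1* and *Prkdc* did not pass the test in this fit (adjusted p = 0.0764 and 0.121). Of 11 other ways of processing, 6 called *Trp53bp1* (lowest adjusted p = 0.00677) and 2 called *Prkdc* (lowest adjusted p = 0.0137), while *Trp53bp1* turned to 0.06 with cells thinned to equal UMIs (adjusted p = 0.742). Among these 11, B1-8hi cells only gave the smallest changes of *Rif1* (0.16), *Xrcc6* (0.23) and *Xrcc4* (-0.13), and the largest of *Nhej1* (0.34).

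Among the end-protection factors, *Rif1* was between 169 and 276 CPM (median 183) in the 6 untreated mice and between 202 and 319 CPM (median 218) in the 9 treated mice. These ranges overlapped because the smaller pool sat higher: within the larger pool 4 untreated mice had 169, 180, 183 and 183 CPM against 202 to 227 in 6 treated mice, and within the smaller pool 2 untreated mice had 238 and 276 CPM against 293, 297 and 319 in 3 treated mice, with no overlap in either. For *Rif1* and the genes below, the share of all genes that separate within a single pool was not counted. With 2 against 3 mice in the smaller pool, such separation there carries little weight. The log2 fold change of *Rif1* was 0.25 (SE 0.05, adjusted p = 4.36e-05). Of the pair, *Trp53bp1* was at 30.2 ± 2.30 CPM in untreated and 27.4 ± 3.55 CPM in treated mice, with overlap, a log2 difference of -0.14 (95% interval -0.27 to -0.01, adjusted p = 0.0764). In the larger pool alone this difference was -0.24 with adjusted p = 0.0273, and in the smaller pool alone -0.07 with adjusted p = 0.704. It passed without Day9DEC replicate 2, 3, 4 or 5 (-0.17 to -0.20).

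The Ku genes had the largest fitted rises of the 9 at this time point. *Xrcc6* went from 43.4 to 58.9 CPM (median 46.3) in untreated mice to 55.2 to 71.1 CPM (median 61.4) in treated mice, and as with *Rif1* the groups overlapped over both pools but in neither pool alone. Its log2 fold change was 0.35 (SE 0.07, adjusted p = 5.00e-05), and that of *Desi1*, which overlaps it, was 0.22 (SE 0.07, adjusted p = 0.00722). *Xrcc5* was at 30.9 ± 5.33 CPM in untreated and 38.6 ± 6.52 CPM in treated mice (log2 fold change 0.32, SE 0.07, adjusted p = 0.000244). Its groups overlapped in the larger pool and not in the smaller one. *Prkdc*, the kinase that Ku recruits, went the other way in value without passing the test: 66.9 ± 13.2 CPM in untreated and 61.8 ± 12.9 CPM in treated mice (log2 difference -0.12, 95% interval -0.24 to 0.01, adjusted p = 0.121). It passed without Day9DEC replicate 2 or 3 (-0.16 and -0.17).

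The ligation complex did not move as a unit. *Lig4*, the ligase, rose from a median of 25 CPM (22.5 to 33.3) to 32.4 CPM (26.6 to 37.6), a log2 fold change of 0.30 (SE 0.09, adjusted p = 0.00498), and its groups overlapped. The larger pool alone gave 0.35 (adjusted p = 0.00785) and the smaller pool alone 0.12 (adjusted p = 0.597), and the difference between pools was not tested. *Xrcc4*, the scaffold of the ligase, fell from 43.8 CPM (37.7 to 65.5) to 38.8 CPM (36.2 to 50.4) as medians, with a log2 fold change of -0.22 (SE 0.06, adjusted p = 0.00527). The 3 treated mice of the smaller pool, at 48.3 to 50.4 CPM, were below its 2 untreated mice at 60.3 and 65.5 CPM, while the groups overlapped in the larger pool (-0.17, adjusted p = 0.0622). *Nhej1* was the least abundant count of the 9, with 36 to 58 UMIs in an untreated mouse. It went from 7.92 ± 1.02 to 9.59 ± 0.83 CPM (log2 fold change 0.28, SE 0.12, adjusted p = 0.0492), and leaving out 1 mouse ended this call in 13 of 15 cases (log2 fold changes of 0.21 to 0.34 over the 15), and it stayed without Day9 replicate 5 or Day9DEC replicate 9. The call held in 3 of 11 other ways of processing and was lost in 8, with log2 fold changes of 0.06 to 0.34 (adjusted p from 0.0183 to 0.862).

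*Parp1* was the gene whose groups did not overlap over both pools, which held for 9.11% of all genes. Untreated mice ranged from 326 to 375 CPM (median 348) and treated mice from 377 to 415 CPM (median 396), a log2 fold change of 0.18 (SE 0.04, adjusted p = 0.00023). Within pools the log2 fold change was 0.12 (adjusted p = 0.0639) in the larger and 0.21 (adjusted p = 0.0223) in the smaller.

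**Figure D2:**
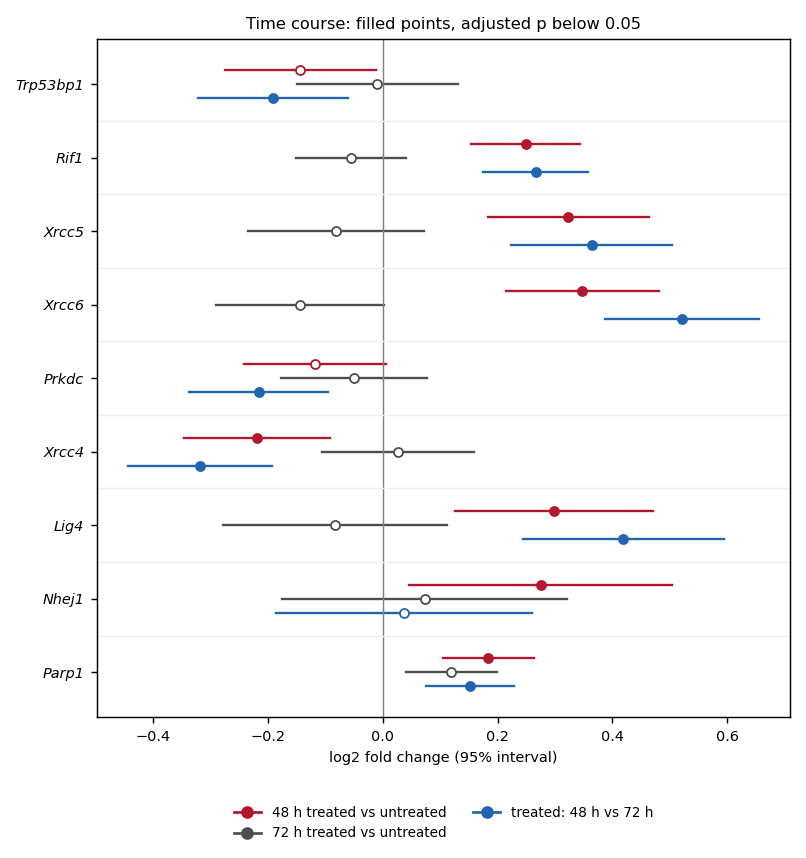
Log2 fold changes (x axis) with 95% intervals of the 9 genes (y axis) for anti-DEC-OVA against untreated at 48 h (red) and at 72 h (grey), and for treated mice at 48 h against 72 h (blue). Filled points passed adjusted p below 0.05: 7 at 48 h, none at 72 h and 8 between the treated time points, from -0.32 (*Xrcc4*) to 0.52 (*Xrcc6*) in the last.

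By 72 h, none of the 9 genes differed past the threshold between treated and untreated mice (edgeR's quasi-likelihood test; 8.55% of all genes called, 874 of 10220, and 2198 at an unadjusted p below 0.05). The nearest was *Parp1*, at 355 ± 27.6 CPM in treated and 328 ± 22.0 CPM in untreated mice (log2 difference 0.12, 95% interval 0.04 to 0.20, adjusted p = 0.055), the only 1 of the 9 with an unadjusted p below 0.05. It passed under 6 of the other settings of the fit on all cells, DESeq2 among them, with log2 fold changes of 0.12 to 0.15, and without either of 2 untreated and 2 treated 72 h mice (0.13 to 0.14). *Xrcc6* was at 44.8 ± 7.97 CPM in treated and 49 ± 6.82 CPM in untreated mice, a log2 difference of -0.14 whose 95% interval ran from -0.29 to 0.00. For *Rif1* the difference was -0.05 (95% interval -0.15 to 0.04) and for *Lig4* -0.08 (-0.28 to 0.11). Untreated mice alone did not change past the threshold over time: 0 of 9 genes were called at 48 h against 0 h (0.127% of all genes; edgeR, with *Prkdc* alone at an unadjusted p below 0.05, 0.00473, and log2 difference -0.19) and 0 of 9 at 72 h against 0 h (4.41%, with *Parp1* at an unadjusted p of 0.015 and log2 difference -0.10, which passed at -0.11 with adjusted p = 0.0416 without Day7 replicate 6). DESeq2 called none of the 9 in either.

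Whether the effect of treatment differed between the time points was tested as the difference of both effects, which share no mice. It passed for 5 genes (31.5% of all genes called; 58.7% of these higher, or 37.6% with library totals). *Xrcc6* differed by 0.49 on the log2 scale (SE 0.10, adjusted p = 0.000276), *Xrcc5* by 0.40 (SE 0.11, adjusted p = 0.00309), *Lig4* by 0.38 (SE 0.13, adjusted p = 0.025) and *Rif1* by 0.30 (SE 0.07, adjusted p = 0.000758). *Xrcc4* differed in the other direction, by -0.24 (SE 0.09, adjusted p = 0.0413). The calls of *Lig4* and *Xrcc4* were lost in 6 and 11 of the 30 fits that left out 1 mouse. The smaller pool alone called none of the 5, with differences of 0.35, 0.27, 0.09, 0.16 and -0.35 in the same order, against 0.53, 0.45, 0.52, 0.35 and -0.24 in the larger pool.

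The treated groups at 48 h and 72 h differed in 8 of 9 genes, 5 higher and 3 lower at 48 h (49.1% of all genes called, 26.8% as higher and 22.3% as lower; 54.6% of these higher, or 34.3% with library totals). The treated 48 h mice are the same as in the comparison with untreated mice. *Xrcc6* separated fully, with 55.2 to 71.1 CPM (median 61.4) at 48 h and 29.6 to 54.0 CPM (median 46.2) at 72 h, a log2 fold change of 0.52 (SE 0.07, adjusted p = 4.48e-08). No other of the 9 genes did so over both pools, as 9.06% of all genes did. *Lig4* had 32.3 ± 3.52 against 25 ± 5.50 CPM (0.42, SE 0.09, adjusted p = 0.000142), *Xrcc5* 38.6 ± 6.52 against 30.6 ± 6.6 CPM (0.36, adjusted p = 4.16e-05) and *Rif1* 244 ± 45.9 against 210.0 ± 43.7 CPM (0.27, adjusted p = 7.78e-06). *Parp1* was higher at 48 h by 0.15 (adjusted p = 0.00119), a value that fell to 0.05 (adjusted p = 0.232) with library totals in place of TMM. Those lower at 48 h were *Xrcc4* (-0.32, SE 0.06, adjusted p = 5.96e-05), *Prkdc* (-0.22, SE 0.06, adjusted p = 0.00349) and *Trp53bp1* (-0.19, SE 0.07, adjusted p = 0.0161, or -0.15 with adjusted p = 0.0541 without 1 treated 72 h mouse of the smaller pool). *Nhej1* did not differ past the threshold (0.04, 95% interval -0.19 to 0.26, or -0.06 with library totals). With cells thinned to equal UMIs, *Xrcc5* had 0.14, *Prkdc* -0.10, *Trp53bp1* -0.12 and *Nhej1* -0.19, whereas *Lig4* had 0.53.

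Ordered by their fitted levels, treated 48 h mice came first for *Rif1*, *Xrcc5*, *Xrcc6*, *Lig4*, *Parp1* and *Nhej1*, and last for *Xrcc4*, *Trp53bp1* and *Prkdc*. In *Rif1*, *Xrcc5*, *Xrcc6*, *Lig4*, *Parp1* and *Xrcc4* that group differed from its neighbour in the order (adjusted p from 5.00e-05 to 0.0256), and no other neighbouring pair of groups did. For *Trp53bp1*, *Prkdc* and *Nhej1*, no neighbouring pair differed past the threshold.

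CPM is a share of the RNA and does not show how many molecules a cell held. The mean UMIs per cell of a mouse had a median over mice of 15385 in treated and 8348 in untreated 48 h mice, so that every one of the 9 genes had more UMIs per cell. *Rif1* had 3.47 ± 0.476 UMIs per cell in treated and 1.71 ± 0.288 in untreated mice at 48 h, *Xrcc6* 0.901 ± 0.0945 against 0.415 ± 0.0468, and *Parp1* 5.72 ± 0.586 against 2.96 ± 0.433. *Xrcc4*, whose CPM fell, had 0.591 ± 0.0573 against 0.404 ± 0.0732 UMIs per cell, and *Prkdc* 0.878 ± 0.135 against 0.560 ± 0.0870. Cells were also thinned to 2871 UMIs, and those with fewer were left out, so that the cells compared changed as well. *Rif1*, *Xrcc5* and *Xrcc6* then stayed higher at 48 h (0.28, 0.38 and 0.38) and *Xrcc4* lower (-0.44), while *Lig4* had 0.33 (adjusted p = 0.051), *Parp1* 0.11 (adjusted p = 0.0712) and *Nhej1* 0.06 (adjusted p = 0.862).

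**Figure D3:**
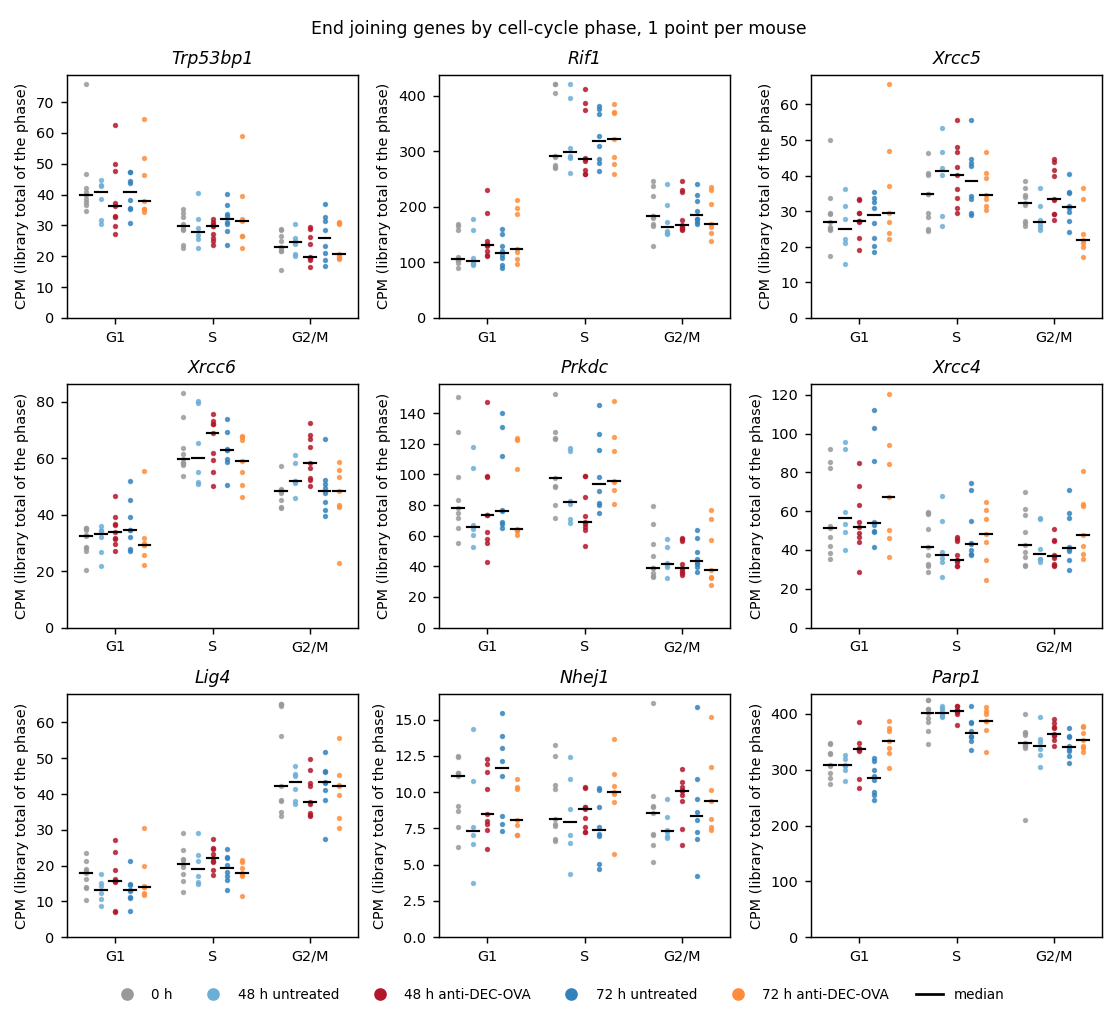
CPM of each gene within cells called G1, S or G2/M (x axis), on the library total of each phase, with 1 point per time-course mouse (39 mice), coloured by group, and a line at the median of each group. *Rif1* peaked in S, *Lig4* in G2/M, and *Trp53bp1* was lower in G2/M than in G1 in all 39 mice.

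The share of cells in each phase moved with the comparisons. G1 cells made up 15.3% to 24.2% of a treated 48 h mouse, 43.4% to 56.8% of an untreated 48 h mouse and 33.9% to 57.5% of a treated 72 h mouse. Phases were called with 97 genes, of which none is 1 of the 9, so the levels of these genes by phase can be described. They are given on the library total of each phase, over 39 mice, without a test.

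Levels over the cycle are given as medians over 39 mice. *Rif1*, which also times DNA replication, had median levels of 119 CPM in G1, 292 in S and 178 in G2/M cells and was highest in S in 39 of 39 mice. *Xrcc6* followed the same order with 32.2, 62.0 and 50.8 CPM, S being above G1 in 39 mice, and *Parp1* did so more flatly with 320, 399 and 353 CPM, S being above G1 in 38 mice. *Lig4* rose late: 14.6 CPM in G1, 20.5 in S and 42.2 in G2/M, with G2/M above both other phases in 39 mice. *Prkdc* was lowest in G2/M, at 41.4 CPM against 73.8 in G1 and 92.1 in S, in 39 mice. *Trp53bp1* went down through the cycle, from 38.6 to 29.9 to 23.3 CPM, and *Xrcc4* was higher in G1 (52.9 CPM) than in S (41.3) or G2/M (40.7), with S above G1 in 6 mice. *Xrcc5* had 27.3, 36.4 and 31.3 CPM, and *Nhej1* 9.04, 8.83 and 8.64 CPM, with S above G1 in 20 of 39 mice.

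Among cells of 1 phase, few of the 48 h differences passed the test. In G1 cells 1 of 9 genes was called, *Rif1* (log2 fold change 0.24, SE 0.08, adjusted p = 0.0415), with 8.25% of all genes called. The G1 levels of *Rif1* in untreated mice were 98.7 to 170 CPM (median 106) and in treated mice 116 to 222 CPM (median 136), with overlap. In S cells none of 9 was called by edgeR or DESeq2 (13.2% of all genes, 1201 of 9097, and 2411 at an unadjusted p below 0.05), with *Prkdc* alone of the 9 among the latter (-0.21, adjusted p = 0.0709), and *Rif1* had a log2 difference of -0.03 (95% interval -0.13 to 0.06) there. Of all called genes in S cells 48.8% were higher (35.1% with library totals), and in G2/M cells 57.0% (39.1%). In G2/M cells 1 of 9 was called, *Xrcc5* (0.37, SE 0.10, adjusted p = 0.00859), with 17.7% of all genes called. *Xrcc5* had 0.12 in G1 and 0.05 in S cells. *Xrcc6* had 0.17 in G1, 0.07 in S and 0.22 in G2/M cells, against 0.35 in all cells. *Lig4*, the gene with the highest G2/M level relative to G1, had differences of 0.29 in G1 (95% interval -0.12 to 0.71), 0.18 in S (-0.07 to 0.43) and -0.04 in G2/M (-0.25 to 0.16). *Xrcc4* had -0.22 in G1 (95% interval -0.45 to 0.01), -0.14 in S (-0.34 to 0.07) and -0.11 in G2/M cells (-0.27 to 0.05), against -0.22 in all cells. *Nhej1* had 0.25 in G1 (-0.20 to 0.70), 0.06 in S (-0.28 to 0.41) and 0.35 in G2/M cells (0.02 to 0.68, adjusted p = 0.148), against 0.28 in all cells. These sums hold fewer UMIs than those of all cells, and a value that missed the threshold within a phase may still differ. The call of *Rif1* in G1 was lost in 8 of the alternatives and that of *Xrcc5* in G2/M in 5.

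Between treated mice at 48 h and 72 h, the within-phase comparisons were added after the data were seen. G1 cells gave 0 of 9 calls (5.25% of all genes, edgeR, and none of the 9 at an unadjusted p below 0.05), S cells 2 of 9 (26.1%) and G2/M cells 4 of 9 (28.9%). In S cells *Prkdc* was lower at 48 h by 0.39 on the log2 scale (the fitted value is -0.39, SE 0.08, adjusted p = 0.000111) and *Lig4* higher by 0.39 (SE 0.14, adjusted p = 0.0253). In G2/M cells *Xrcc5* was higher by 0.59 (SE 0.11, adjusted p = 3.48e-05), *Xrcc6* by 0.48 (SE 0.09, adjusted p = 6.04e-05) and *Rif1* by 0.14 (adjusted p = 0.0457), and *Xrcc4* was lower (-0.29, SE 0.08, adjusted p = 0.00564). The difference of the treatment effect between time points was called in G2/M cells for *Xrcc5* (0.69, SE 0.16, adjusted p = 0.0038) and *Rif1* (0.23, SE 0.08, adjusted p = 0.0467), with 10.6% of all genes called, and in neither G1 nor S cells for any of the 9 by edgeR (2.8% and 6.77%), where 2 and 1 of them had an unadjusted p below 0.05. At 72 h, *Parp1* was higher in treated than untreated mice within G1 cells (0.30, SE 0.06, adjusted p = 0.000485, with 8.99% of all genes called).

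**Figure D4:**
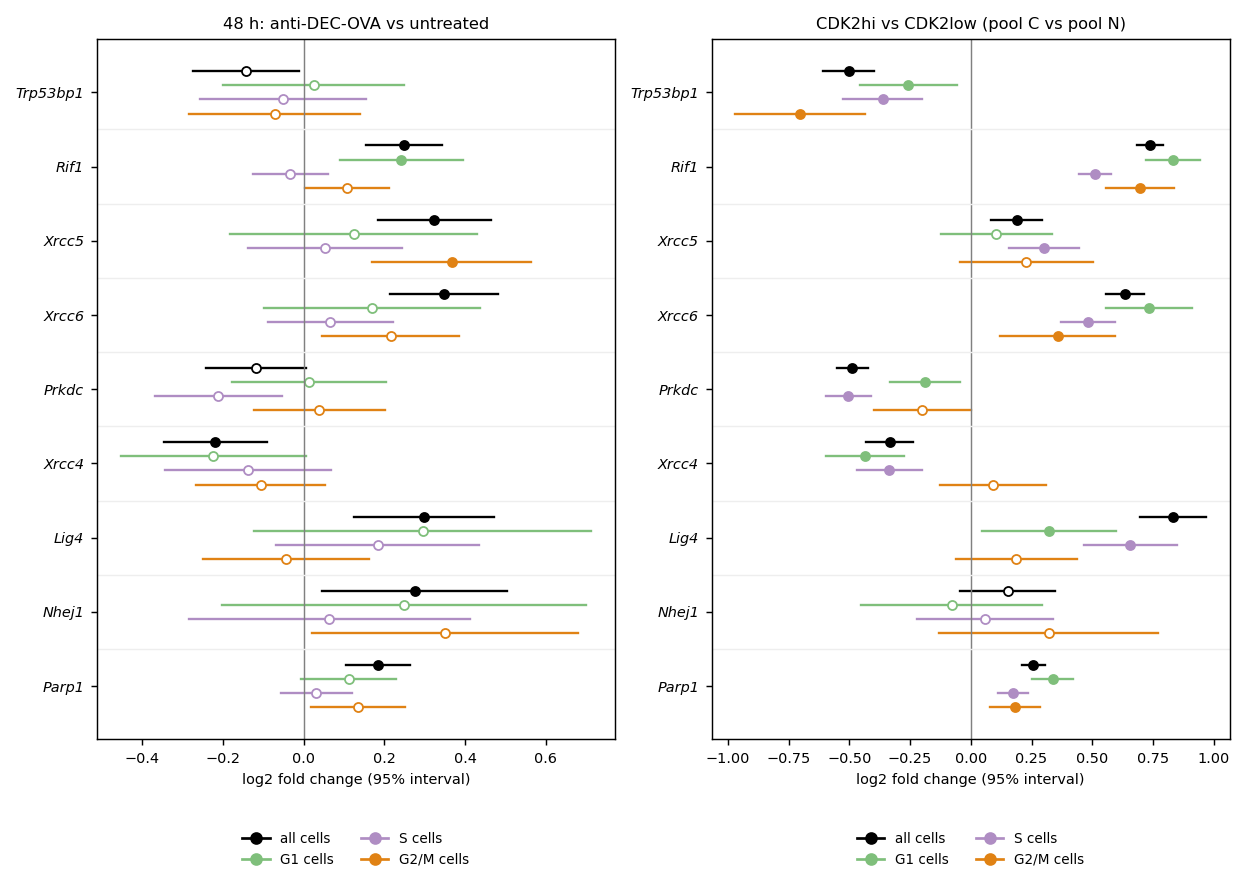
Log2 fold changes (x axes) with 95% intervals of the 9 genes (y axes) in all cells (black) and in G1 (green), S (purple) and G2/M cells (orange), for anti-DEC-OVA against untreated at 48 h (left) and for CDK2hi against CDK2low cells (right). Filled points passed adjusted p below 0.05. On the left 7 black points are filled and 1 green and 1 orange, whereas on the right *Rif1*, *Xrcc6* and *Parp1* are filled and to the right of 0 in every row.

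CDK2hi and CDK2low cells of the same mice differed in 8 of the genes. Of the 9, 5 were higher and 3 lower in CDK2hi cells (75.1% of all genes called, 36.5% as higher and 38.6% as lower; edgeR's quasi-likelihood test with the mouse as a block), with a median log2 fold change of 0.19 over the 9 and -0.03 over all genes. Of all called genes 48.5% were higher, or 29.2% with library totals. Relative to TMM, library totals moved the median of all genes by -0.20 on the log2 scale, so differences are relative to that choice. *Rif1*, *Xrcc6*, *Lig4* and *Parp1* were higher and *Trp53bp1*, *Prkdc* and *Xrcc4* lower under both scalings, whereas *Xrcc5* went from 0.19 with TMM to -0.01 with library totals, and *Nhej1* from 0.15 to -0.05.

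*Lig4* had the largest change. CDK2hi cells of the 7 mice were between 25.3 and 34.7 CPM (median 28.7) and CDK2low cells between 13.7 and 19.3 CPM (median 16.8), without overlap, and CDK2hi was higher in 7 of 7 mice (log2 fold change 0.83, SE 0.07, adjusted p = 4.43e-11). *Rif1* was likewise separate, with 262 to 290.1 CPM (median 269) against 152 to 176 CPM (median 160), higher in 7 of 7 mice (0.74, SE 0.03, adjusted p = 2.61e-18). *Xrcc6* had 55.5 to 67.9 CPM (median 61.2) against 36.0 to 43.6 CPM (median 41.6), higher in 7 of 7 mice (0.63, SE 0.04, adjusted p = 1.94e-13). *Parp1* showed a smaller separate rise, 345 to 381 CPM against 275 to 313 CPM (0.26, SE 0.02, adjusted p = 4.3e-10, or 0.06 with adjusted p = 0.0204 with library totals). Groups that did not overlap were found for 39.9% of all genes in this comparison. Mean UMIs per cell had a median over mice of 10809 in CDK2hi and 13727 in CDK2low cells. Per cell, *Parp1* had 3.68 UMIs in CDK2hi and 4.30 in CDK2low cells, *Xrcc5* 0.300 and 0.363, and *Nhej1* 0.101 and 0.128. *Rif1* (2.78 and 2.33), *Lig4* (0.301 and 0.235) and *Xrcc6* (0.635 and 0.576) were higher in CDK2hi cells on this scale too.

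Lower in CDK2hi cells were *Trp53bp1* and *Prkdc*. *Trp53bp1* was between 21.7 and 27.3 CPM (median 24.6) in CDK2hi and between 31.1 and 36.9 CPM (median 34.9) in CDK2low cells, lower in 7 of 7 mice (log2 fold change -0.50, SE 0.05, adjusted p = 4.65e-09). *Prkdc* was between 61.4 and 73.7 CPM (median 65.0) against 84.7 and 106 CPM (median 91.5), also lower in 7 of 7 mice and without overlap (-0.49, SE 0.03, adjusted p = 6.93e-13). *Xrcc4* was at 44.1 ± 3.89 CPM against 55.8 ± 6.56 CPM, lower in each mouse but with overlapping groups (-0.33, SE 0.05, adjusted p = 1.2e-06).

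The fitted differences were smaller for the other Ku subunit and for XLF. *Xrcc5* was at 29.2 ± 2.26 CPM in CDK2hi and 25.4 ± 2.95 CPM in CDK2low cells, higher in 6 of 7 mice (0.19, SE 0.05, adjusted p = 0.00276), a call that was lost when cells were thinned to equal UMIs (0.10, adjusted p = 0.28) and with library totals (-0.01). *Nhej1* was at 9.81 ± 1.04 against 8.93 ± 1.93 CPM, higher in 3 of 7 mice, and did not pass the test (0.15, 95% interval -0.04 to 0.34, adjusted p = 0.17).

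**Figure D5:**
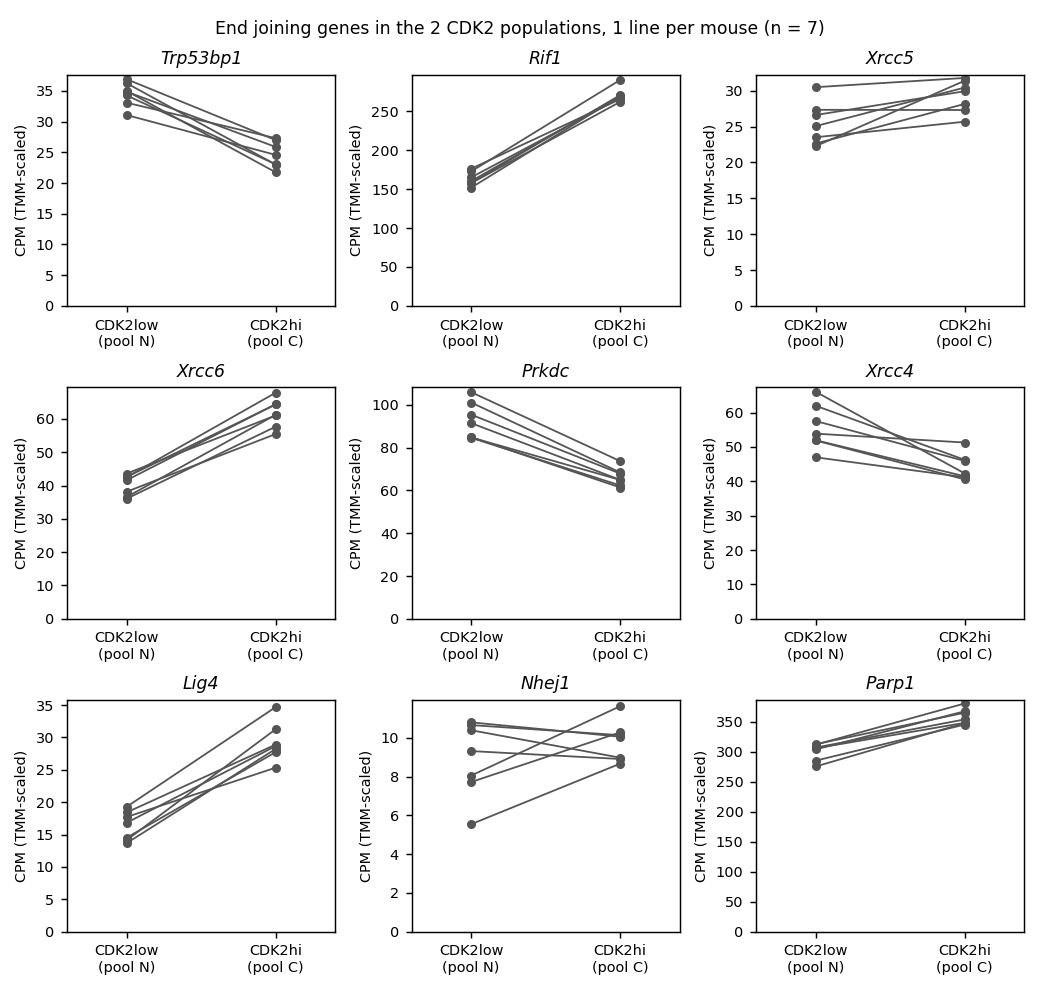
CPM (TMM-scaled, y axis from 0) of each gene in CDK2low (pool N) and CDK2hi cells (pool C) on the x axis, with 1 line for each of 7 mice. All 7 lines rise for *Rif1*, *Xrcc6*, *Lig4* and *Parp1* and fall for *Trp53bp1*, *Prkdc* and *Xrcc4*, while 6 rise for *Xrcc5* (with library totals its mean change is -0.01) and 3 for *Nhej1* (-0.05 with library totals).

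Phase differed strongly between the sorted populations, with 12.4% to 19% of CDK2hi and 52.5% to 63.4% of CDK2low cells in G1, and 45.6% to 58.0% against 6.79% to 12.5% in G2/M. Cells of 1 phase were therefore also compared, a choice made after the data were seen. Within G1 cells 7 of 9 genes were called (61.8% of all genes), within S cells 8 of 9 (62.4%) and within G2/M cells 4 of 9 (50.6%). *Rif1* kept a log2 fold change of 0.83 in G1, 0.51 in S and 0.70 in G2/M cells, and *Xrcc6* of 0.73, 0.48 and 0.36, each past the threshold. *Trp53bp1* was lower by -0.26, -0.36 and -0.70. The change of *Lig4* was smaller within each phase, 0.32 in G1 (adjusted p = 0.0452), 0.66 in S (adjusted p = 4.67e-07) and 0.19 in G2/M cells (95% interval -0.06 to 0.44, adjusted p = 0.226). *Prkdc* had -0.19, -0.50 and -0.20, the last with adjusted p = 0.104, and *Xrcc4* turned from -0.43 in G1 and -0.34 in S to 0.09 in G2/M cells (95% interval -0.13 to 0.31, adjusted p = 0.512).

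Markers of other cells also moved with both comparisons. The summed level of 8 naive or memory B cell markers was 105 to 220.4 CPM in treated and 238 to 445 CPM in untreated 48 h mice, and 112 to 197 CPM in CDK2hi against 316 to 500.3 CPM in CDK2low cells. The sum of 8 light-zone genes was 468 to 608 CPM against 804 to 954 CPM at 48 h and 517 to 668 CPM against 857 to 1083 CPM in the sort. The sum of 7 dark-zone genes overlapped in both comparisons. It was 793 to 907 against 779 to 865 CPM at 48 h and 703 to 797 against 636 to 777 CPM in the sort. Sums of 7 plasma cell markers overlapped at 48 h (1442 to 2491 against 924 to 1847 CPM), as did those of 7 T cell markers at their edges (48.3 to 70.3 against 70.0 to 107 CPM), with *Cd3e* under 3.9 CPM in every time-course mouse and at 10.7 CPM in the CDK2low cells of 1 mouse. Sums of 8 myeloid markers were 6.95 to 26.2 CPM in treated and 9.57 to 29.8 CPM in untreated 48 h mice, and 4.43 to 7.75 CPM in CDK2hi against 7.76 to 27.7 CPM in CDK2low cells, where *Lyz2* reached 12.3 CPM. The sum of 10 GC B cell markers was 4411 to 6205 CPM in treated and 5290 to 7339 CPM in untreated 48 h mice. In the sort it was 5144 to 5978 CPM in CDK2hi and 6041 to 6843 CPM in CDK2low cells, without overlap. The part of all these markers in the results was not tested.

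The neighbours in the genome were read in the same fits. *Mcm4*, whose start lies next to that of *Prkdc*, went from 191 ± 22.8 CPM in untreated to 272 ± 16.8 CPM in treated mice at 48 h (0.52, SE 0.07, adjusted p = 4.55e-08) and was higher in CDK2hi cells (238 ± 17.9 against 163 ± 9.38 CPM; 0.55, adjusted p = 6.12e-13), where *Prkdc* was lower. *Abhd13*, overlapping *Lig4*, did not pass the test at 48 h (-0.02, adjusted p = 0.880) or in the sort (0.01, adjusted p = 0.955). *Tmem167* was higher in CDK2hi cells (0.41, SE 0.03, adjusted p = 4.05e-12), opposite to *Xrcc4*, and *Tubgcp4* did not pass in either comparison (-0.03 at 48 h and 0.05 in the sort). *Map1a*, which also overlaps *Trp53bp1*, was higher in treated mice at 48 h (0.97, SE 0.32, adjusted p = 0.0101) and in CDK2hi cells (2.06, SE 0.21, adjusted p = 3.25e-09), where *Trp53bp1* was lower. *Desi1* was higher in CDK2hi cells by 0.21 (SE 0.05, adjusted p = 0.000313), a smaller change than that of *Xrcc6*.

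The rest of the pathway was read from 5 lists. Over all genes tested, 47.3% were called at 48 h against untreated, 49.1% at 48 h against 72 h after treatment and 75.1% in the CDK2 sort, with medians of 0.01, 0.01 and -0.03 on the log2 scale, and the counts of each list stand beside these shares. Within G1, S and G2/M cells at 48 h, 8.25%, 13.2% and 17.7% of all genes were called. Of 11 tested accessory factors of classical end joining, 4 were higher and 2 lower in treated mice at 48 h (median log2 fold change 0.15), 4 higher and 3 lower at 48 h against 72 h after treatment (0.11), and 4 higher and 5 lower in CDK2hi cells (0.10), shares near those over all genes. Within phases at 48 h, 1 of 10 was called in G1 (*Cyren*, higher by 0.60), and 0 of 11 in S and in G2/M cells. *Aplf*, a scaffold that binds Ku, rose from 9.09 ± 1.38 to 12.1 ± 1.35 CPM at 48 h (0.41, SE 0.11, adjusted p = 0.00271), while *Paxx*, another Ku-binding factor, fell from 23.1 ± 4.92 to 18.5 ± 3.05 CPM (-0.32, SE 0.07, adjusted p = 0.000564). *Tdp2*, which removes topoisomerase II from DNA ends, rose by 0.26 at 48 h (adjusted p = 0.00027) and was higher in CDK2hi cells (46.4 ± 1.17 against 25.4 ± 2.14 CPM; 0.87, adjusted p = 1.1e-14), as was *Tdp1*, its counterpart for topoisomerase I (59.0 ± 2.87 against 30.3 ± 2.90 CPM; 0.96, adjusted p = 3.24e-15). Against treated 72 h mice, *Aplf* (0.52) and *Tdp1* (0.30) were higher and *Paxx* (-0.34) lower at 48 h, with adjusted p from 6.8e-05 to 0.000247, and *Aplf* was higher in CDK2hi cells (0.78, adjusted p = 3.1e-08).

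Of 19 tested genes around 53BP1 and shieldin, 11 were higher and 2 lower at 48 h (median 0.20), 9 higher and 2 lower against treated 72 h mice (0.14) and 13 higher and 4 lower in CDK2hi cells (0.46). Within phases at 48 h, 0 of 17 were called in G1, 0 of 19 in S and 1 of 19 in G2/M cells (*Shld1*, -0.44). Among the shieldin subunits, *Shld1* fell at 48 h from 19.5 ± 2.73 to 13.6 ± 1.04 CPM (-0.52, SE 0.08, adjusted p = 1.59e-06) and *Shld3* rose from 2.64 ± 0.812 to 3.66 ± 0.404 CPM (0.45, SE 0.17, adjusted p = 0.0258), and the difference between the subunits was not tested. In CDK2hi cells both were lower, *Shld1* at 13.4 ± 1.58 against 19.3 ± 1.55 CPM (-0.52, adjusted p = 2.26e-07) and *Shld3* at 2.10 ± 0.606 against 3.24 ± 0.907 CPM (-0.50, adjusted p = 0.0148). *Trip13*, an ATPase that takes shieldin apart and also acts at mitotic checkpoints, rose from 30.0 ± 5.04 to 41.9 ± 2.29 CPM (0.48, adjusted p = 3.66e-05). Against treated 72 h mice the largest were *Trip13* (0.55), the histone methyltransferase gene *Kmt5a* (0.53) and *Paxip1* (0.40), with adjusted p from 1.26e-07 to 3.25e-06. In CDK2hi cells they were *H2ax*, the histone variant phosphorylated at breaks (699 ± 65.1 against 118 ± 9.68 CPM; 2.56, adjusted p = 4.59e-28), *Trip13* (2.48, adjusted p = 7.75e-21) and *Ctc1* of the CST complex (1.52, adjusted p = 8.69e-18).

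Of 12 alternative end-joining genes, 8 were higher and none lower at 48 h (median 0.22), 8 higher and 1 lower against treated 72 h mice (0.24) and 8 higher and 2 lower in CDK2hi cells (0.57). Within phases at 48 h, *Lig1* alone was called, 1 of 10 in G1 (0.72) and 1 of 12 in G2/M cells (0.25), and 0 of 12 in S cells. The largest at 48 h were the exonuclease gene *Exo1* (0.47, SE 0.09), the flap nuclease gene *Fen1* (0.43, SE 0.08) and the ligase gene *Lig1* (0.41, SE 0.06), with adjusted p from 1.81e-06 to 6.87e-05, and all 3 also act in replication. *Polq*, which encodes polymerase theta, was higher by 0.43 against treated 72 h mice (adjusted p = 2.75e-05), beside *Exo1* (0.61) and *Fen1* (0.49). It had the largest change of the list in CDK2hi cells, at 53.5 ± 4.65 against 8.11 ± 1.79 CPM (2.75, SE 0.06, adjusted p = 8.92e-23), followed by *Exo1* (1.93) and *Lig1* (1.44). *Exo1*, *Fen1*, *Ung* and *Mcm4* were among the 97 genes with which phases were called.

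Of 11 PARP1 partners, 5 were higher and 3 lower at 48 h (median 0.07), 5 higher and 1 lower against treated 72 h mice (0.10) and 6 higher and 3 lower in CDK2hi cells (0.12). Within phases at 48 h, 2 of 10 were called in G1 and 2 of 11 in S cells (*Hpf1* higher and *Parp3* lower in both), and 3 of 11 in G2/M cells, where *Timeless* was also higher. *Hpf1*, which directs PARP1 to serine residues, rose from 346 ± 11.2 to 473 ± 26.6 CPM at 48 h (0.45, SE 0.05, adjusted p = 3.59e-09), *Aplf* by 0.41 as above, and *Parp3* fell from 26.5 ± 1.67 to 16.7 ± 2.19 CPM (-0.68, SE 0.09, adjusted p = 4.19e-08). Against treated 72 h mice the values were 0.52 for *Aplf*, -0.48 for *Parp3* and 0.32 for *Timeless*, a fork-protection factor. In CDK2hi cells *Parp3* was lower (-0.85, adjusted p = 1.15e-12), and *Timeless* (0.85) and *Parp2* (0.84) higher, with adjusted p of 8.22e-15 and 1.2e-16.

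Of 13 class-switch cofactors, 4 were higher and none lower at 48 h (median 0.05), 3 higher and 1 lower against treated 72 h mice (0.05) and 7 higher and 3 lower in CDK2hi cells (0.13). The shares called at 48 h, 4 of 13 in both comparisons, lay below those over all genes. Within phases at 48 h, 0 of 12 were called in G1, 1 of 13 in S (*Hmces*) and 4 of 13 in G2/M cells (*Ung*, *Hmces*, *Exosc10* and *Exosc3*), each higher. *Exosc3*, a subunit of the RNA exosome, rose from 107 ± 15 to 132 ± 13.9 CPM at 48 h (0.31, SE 0.06, adjusted p = 2.22e-05), beside the abasic-site sensor *Hmces* (0.52) and the uracil glycosylase *Ung* (0.34, adjusted p = 0.0176). Against treated 72 h mice the values were 0.63 for *Ung*, 0.32 for *Exosc3* and 0.24 for *Hmces*. In CDK2hi cells the mismatch repair gene *Pms2* was at 40.3 ± 2.94 against 23.4 ± 1.47 CPM (0.78, adjusted p = 1.55e-13), beside *Hmces* (0.93) and *Exosc3* (0.67). At 72 h after treatment, 1 gene of the 5 lists was called, *Hmces* (0.37, adjusted p = 3.15e-05).

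The genes whose levels followed each member most closely over the 39 time-course mice were found by Pearson's r of log2(CPM + 1) after the mean of each pool was removed. These points share pools, depth and phase mix, as well as treatment groups, whose means were not removed. The group changes given above therefore enter r, which is a description. *Rif1* was most like *Atad2* (0.93), *Mcm3* (0.92) and *E2f8* (0.92). *Xrcc6* was most like the ribosomal protein genes *Rps18*, *Rpl8* and *Rps12* (0.87, 0.87 and 0.86), *Xrcc5* like *Mtx2*, *Wdr36* and *Gart* (0.87, 0.82 and 0.81), and *Parp1* like *Cox6a1*, *Zfp706* and *Hnrnpk* (0.88, 0.87 and 0.87). Among the other members, *Prkdc* was most like *Erbin*, *Smg1* and *Chst3* (0.84, 0.83 and 0.82), *Xrcc4* like *Mrtfa*, *Vps13b* and *Exoc4* (0.82, 0.81 and 0.79), and *Trp53bp1* like *Akap9*, *Rassf5* and *Asb13* (0.69, 0.68 and 0.67). *Lig4* (*Sfpq*, *Plrg1* and *Scaf11*; 0.68, 0.65 and 0.65) and *Nhej1* (*Mlst8*, *Nbea* and *Chkb*; 0.63, 0.62 and 0.61) had the lowest values. Between members, r was 0.78 for *Rif1* with *Xrcc6*, 0.64 for the Ku pair *Xrcc5* and *Xrcc6*, and -0.46 for the ligase pair *Xrcc4* and *Lig4*.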

How the data were processed

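Single-cell 5′ libraries of GC B cells were deposited as unnormalised counts of UMIs per gene and cell, made by the authors with Cell Ranger (8.0.1 in the file headers, 6.0.1 in the submitters' processing notes) on mm39. Cells were assigned to mice by HTODemux (Seurat 5.3.0, quantile 0.99), which leaves out cells of mixed hashtags; no other doublet caller was run. An assigned cell entered with 200 or more genes detected and less than 10% of its UMIs mitochondrial, and after both steps 13625 and 10073 cells in the larger and smaller time-course pools, 7503 in pool C and 4385 in pool N remained. Of 13187 assigned cells in the smaller time-course pool, 3114 failed the mitochondrial limit, against 350 of 13976 in the larger. Hashtags with under 1 UMI per cell on average were not used, so 2 mice were not analysed. The pools shared 6 to 94 barcodes. Phases were called with Seurat's lists.

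Counts were summed per mouse (278 to 1721 cells, 1984426 to 20883036 UMIs) and tested with edgeR 4.0.16 (filterByExpr, TMM, quasi-likelihood F test) in R 4.3.3, Benjamini-Hochberg over all genes, threshold 0.05. The 5 time-course groups entered 1 fit with the pool as a term, and pools C and N were paired by mouse, since both came from the same 7 animals (deviations of a mouse's libraries correlated at 0.132 to 0.467). SE is the log2 fold change divided by the square root of F, and 95% intervals are the normal ones. Time-course mice of different groups were not paired. Replicates differed by more than sampling noise (lowest chi-square per degree of freedom 1.55).

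The 9 genes and all lists were chosen with earlier results of these data known. All 9 genes are named, and of each list the 3 called genes with the largest absolute change per comparison. Alternatives were DESeq2 1.42.0, library totals without TMM, no filters, B1-8hi cells only, thinned cells (2871 and 5264 UMIs, cells with fewer left out), other hashtag assignment, no pool term, single pools, only the groups compared, no block and leaving out each mouse. The mapping of hashtags to mice follows the sample labels. Promoters were read from GRCm39 with GENCODE vM39. The promoter of 1 gene is not reported here. The scripts were tested on simulated data.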

Additional observations from a re-analysis of the deposited data

Results flagged for a closer look

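Effects of anti-DEC-OVA differed between 48 h and 72 h, by the test of the difference itself, for *Rif1* (0.30 on the log2 scale), *Xrcc5* (0.40), *Xrcc6* (0.49), *Xrcc4* (-0.24) and *Lig4* (0.38).

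Of 63 groups of 1 gene tested for a mouse far from the rest, 3 had one, and chance gives about 1 in 20. *Trp53bp1* at 0 h had a highest value of 40.6 CPM in a mouse of the smaller pool, on 85 UMIs, against 33.4 CPM in the next and 27.7 CPM in the lowest. *Parp1* at 0 h had a lowest value of 295 CPM in a mouse of the larger pool, on 592 UMIs, against 339.9 CPM in the next, and 67.9% of the 312 cells of that mouse were in G1. *Rif1* in CDK2hi cells had a highest value of 290.1 CPM against 270.6 CPM in the next mouse and 262 CPM in the lowest.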

How the results depend on the processing

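Called members kept their direction under the alternatives run, except as follows. With library totals *Xrcc5* had -0.01 (-0.00816) in CDK2hi against CDK2low cells. Among cells of 1 phase, 48 h against untreated gave -0.03 for *Rif1* in S and -0.04 for *Lig4* in G2/M. In the other comparisons, where phases were separated after the data were seen, treated 48 h against 72 h mice gave -0.18 for *Xrcc5* and -0.0652 for *Parp1* in G1 and 0.0898 for *Prkdc* in G2/M, the difference of the treatment effects gave -0.12 for *Xrcc5* in G1 and -0.00118 for *Rif1* in S, and CDK2hi against CDK2low cells gave 0.0916 for *Xrcc4* in G2/M. The cause was not tested.

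Of 9 members, 7 were called at 48 h against untreated, but 4 with thinned cells, 3 without a pool term and 2 in the smaller pool alone, against 9 with only the groups compared (6 to 8 without 1 mouse). At 72 h none was called, but 1, *Parp1*, by DESeq2, with library totals, in B1-8hi cells, with thinned cells, with the other hashtag assignment, with only the groups compared and within G1 (0 to 1 without 1 mouse). Between treated 48 h and 72 h mice 8 were called, but 4 with thinned cells or without a pool term, 0 within G1, 2 within S and 4 within G2/M (7 to 8). For the difference of the effects 5 were called, but 3 in B1-8hi or thinned cells, 1 without a pool term, 0 in the smaller pool, within G1 or within S, and 2 within G2/M (3 to 5). For untreated 72 h against 0 h the count was 0 to 1 without 1 mouse. Within G1 at 48 h 1 was called, and 0 with library totals, no filter on genes, B1-8hi cells, no filter on cells, thinned cells, no pool term, the smaller pool or only the groups compared. Within S none was called, and 1, *Prkdc*, with library totals, no filter on cells, thinned cells or only the groups compared. Within G2/M 1 was called, 2 with no filter on genes, the other hashtag assignment or only the groups compared, and 0 in B1-8hi cells, thinned cells, without a pool term or in either pool alone. In the CDK2 sort 8 were called, 7 with library totals, thinned cells or within G1, 4 within G2/M, and 8 without each mouse (8 to 8).

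The fit of the CDK2 sort without the replicate block also called 8 members, and 7054 genes against 7604 with the pairing by mouse. In the smaller time-course pool the numbers 1 to 3 recur across groups, beside another letter in each. Same-numbered mice of different groups deviated from their group means with r of -0.06 to 0.26 (over 0.1 in 14 of 26 pairs), and differently numbered ones with -0.23 to 0.12 (over 0.1 in 2 of 52). What the numbers mark is not given in the sources used here, and the reported fits are unpaired. Day7 with Day9DEC had 3 same-numbered pairs, all over 0.1 (0.259, 0.115 and 0.108). Both same-numbered pairs of Day9 with Day9DEC were also over 0.1 (0.196 and 0.211). A shared factor behind the numbers was not tested. With a replicate block by that number, added after the data were seen, this pool alone called 2 members at 48 h against untreated, 7 between treated time points (6 without the block) and 0 for the other time-course comparisons. Over all genes the other alternatives called 2148 to 5079 genes at 48 h (4839 in the reported fit), 22 to 997 at 72 h (874), 2660 to 5349 between treated time points (5018), 768 to 3451 for the difference of effects (3219), 0 to 25 and 3 to 499 for untreated 48 h and 72 h against 0 h (13 and 451), 12 to 841, 228 to 1398 and 171 to 2049 within G1, S and G2/M at 48 h (727, 1201 and 1629), and 6565 to 8231 in the CDK2 sort (7604). For untreated 48 h against 0 h, 46.2% of called genes were higher, or 68% by DESeq2.

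In the difference of effects, the call of *Lig4* was lost without Day9DEC replicate 2 or 5, Day10 replicate 1 or 2, or Day10DEC replicate 1 or 3 (0.32 to 0.35), and that of *Xrcc4* without Day9 replicate 1, 2 or 6, Day10 replicate 1, 4 or 8, Day9DEC replicate 7, 8 or 9, or Day10DEC replicate 1 or 7 (-0.20 to -0.25). *Parp1* at 72 h passed without Day10 replicate 2 or 3 or Day10DEC replicate 6 or 7. Mice were not left out within phases. *Nhej1* had 17 to 199 UMIs per mouse, the fewest of the members.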
